A study of Homo sapiens with 16 samples.

Results

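10 genes of the bone morphogenetic protein (BMP) pathway were followed through 2 neuroblastoma cell lines: the ligand genes BMP4 and BMP7, the antagonist gene GREM1, the inhibitory SMAD6, and the target genes ID1, ID2, ID3, ID4, MSX1 and MSX2. They are 10 of the 23459 genes in the count table, chosen by name but with earlier results of these data known. All 10 were among the 15967 genes with enough counts to be tested. RNA was sequenced from Be(2)-C and IMR5-75, human neuroblastoma lines grown in culture, after treatment with drugs that act on chromatin. In each line 1 group received the solvent DMSO, 1 received DAC at 1 µM for 72 h, 1 received EPZ-6438 at 1 µM for 96 h, and 1 received both drugs. DAC is not spelled out in the labels and is the common short name of decitabine, a nucleoside that depletes DNA methyltransferases; EPZ-6438, EPZ from here on, inhibits the histone methyltransferase EZH2. Each of the 8 groups held 2 libraries, with between 9539557 and 14032155 counts per library. No label says that the libraries of a group came from separate cultures, so p-values below cover no more than the scatter among libraries, possibly of technical origin.

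BMPs are secreted ligands of the TGF-beta family. They bind paired receptor kinases, which phosphorylate receptor SMADs, and these enter the nucleus with SMAD4 and switch on target genes. The ID genes are such targets: ID proteins bind basic helix-loop-helix (bHLH) factors and keep them from DNA. MSX1 and MSX2 encode homeobox repressors that are induced by BMPs in the neural crest. GREM1 protein binds BMPs outside the cell, and SMAD6, itself a target, dampens the pathway from inside. In the embryo, BMPs from the dorsal aorta push neural crest cells towards the sympathetic lineage, from which neuroblastoma arises.

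The label of neuroblastoma was set against markers. Of the noradrenergic markers, PHOX2A, HAND2, GATA3, ISL1, MYCN and CHGA had at least 27.1 CPM (counts scaled to a library size of 1e+06) in every library of both lines. TH and DBH, which encode enzymes of catecholamine synthesis, were at 53.2 CPM or more in Be(2)-C but at no more than 2.60 and 15.3 CPM in IMR5-75, where TH was at 0 in 3 libraries. The libraries are bulk RNA, so a change in the number of cells of one kind and a change in RNA per cell cannot be told apart in any result below.

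The DNA just upstream of 4 of the genes is shown because MSX1, MSX2 and GREM1 were higher after both drugs in both lines and ID1 was a gene whose change differed between lines, and because DAC is known to act on methylation at CpG, the step of C and G that the capitals mark. The windows are the 250 bases before each RefSeq gene start (build GRCh38.p14; the count table was made on hg19), all on the plus strand. They are printed without the part that runs into the gene's own annotated exons. ID4, SMAD6 and BMP4 were also higher after both drugs in both lines. The change of ID3 differed between lines as well, but that rule leaves no part of its window to print.

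MSX1, chr4:4859415-4859664: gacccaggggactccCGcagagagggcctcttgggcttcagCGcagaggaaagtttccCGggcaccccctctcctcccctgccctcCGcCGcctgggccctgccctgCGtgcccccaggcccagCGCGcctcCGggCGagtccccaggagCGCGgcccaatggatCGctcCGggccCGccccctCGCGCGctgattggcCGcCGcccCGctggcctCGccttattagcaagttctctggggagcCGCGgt
MSX2, chr5:174724332-174724532: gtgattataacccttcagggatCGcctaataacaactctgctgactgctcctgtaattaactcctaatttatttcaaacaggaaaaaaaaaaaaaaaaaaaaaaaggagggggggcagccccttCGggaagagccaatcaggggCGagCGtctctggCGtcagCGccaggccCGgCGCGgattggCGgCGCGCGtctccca
GREM1, chr15:32717754-32717973: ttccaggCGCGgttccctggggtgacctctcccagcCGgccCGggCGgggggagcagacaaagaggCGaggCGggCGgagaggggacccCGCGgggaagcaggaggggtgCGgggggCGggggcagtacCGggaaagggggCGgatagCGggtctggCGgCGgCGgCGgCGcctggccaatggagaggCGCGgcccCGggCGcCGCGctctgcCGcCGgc
ID1, chr20:31605039-31605282: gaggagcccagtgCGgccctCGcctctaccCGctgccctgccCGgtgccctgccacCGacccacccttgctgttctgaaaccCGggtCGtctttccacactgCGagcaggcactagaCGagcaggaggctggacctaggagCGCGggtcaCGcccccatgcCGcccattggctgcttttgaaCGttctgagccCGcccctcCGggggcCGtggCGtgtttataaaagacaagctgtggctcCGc

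Over 35116 windows of the same length the median was 11 CpG, with quartiles of 3 and 23. Of the members, 9 had a window, and over the full 250 bases each had more CpG than that median: MSX1 had 24, MSX2 17, ID1 19, ID2 29, ID3 24, ID4 34, SMAD6 25, GREM1 32 and 23 at its 2 starts, and BMP4 between 17 and 27 at its 3 starts. The printed stretches of MSX2 and GREM1 are shorter than their windows and hold 13 and 28. The letters GGCGCC, one of the sequences receptor SMADs are known to bind, were in a window of GREM1 (2 times in the stretch above) and in 1 window of BMP4, among the 9 members, and in 16.38% of all windows. The palindrome GTCTAGAC, the classical SMAD box on both strands, was in 0.1823% of all windows. Of the members, it was in the window of SMAD6, where it starts at position -12 from the gene start. That window holds no GGCGCC. The palindrome is in capitals in the following 21 bases. Unlike the stretches above, these run into an annotated SMAD6 exon after base 66702227, and so does the palindrome.

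SMAD6, chr15:66702215-66702235, plus strand: cgccaaagtGTCTAGACtggc

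These matches describe letters only, and neither methylation nor factor binding was measured in these libraries.

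Before any drug, the lines held the pathway at different levels. IMR5-75 had more MSX1, ID4 and BMP4 transcript than Be(2)-C and less GREM1, MSX2, ID1, ID2, ID3, SMAD6 and BMP7. All 10 genes differed between the DMSO groups in edgeR's quasi-likelihood test (adjusted p under 0.05, 3 higher and 7 lower in IMR5-75), in a comparison that called 63.2% of all genes tested (32% higher, 31.2% lower). MSX1 was at 8.18 and 6.65 CPM in the IMR5-75 DMSO libraries and at 1.18 and 1.01 CPM in those of Be(2)-C, a log2 difference of 2.75 ± 0.33 (SE). ID4 was at 15.6 and 14.1 CPM against 2.90 and 1.84 (2.64 ± 0.24). GREM1 ran the other way, at 0.516 and 0.757 CPM in IMR5-75 against 5.44 and 5.60 in Be(2)-C (-3.11 ± 0.37), as did MSX2 (-1.91 ± 0.18) and ID3 (-1.40 ± 0.14). For none of these genes did the libraries of the lines overlap. BMP4 had 3 counts over both Be(2)-C DMSO libraries and 44 over those of IMR5-75, a ratio of 12.6 with a counting interval of 4.05 to 63.6. BMP7 had the smallest support (-0.69 ± 0.27, adjusted p = 0.0310): its difference fell short of the threshold in 4 of 8 alternatives, with an adjusted p of up to 0.310 when IMR5-75 DMSO 1 was left out. The other 3 were Be(2)-C DMSO 1 left out, Be(2)-C DMSO 2 left out and the DESeq2 test.

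**Figure D1:**
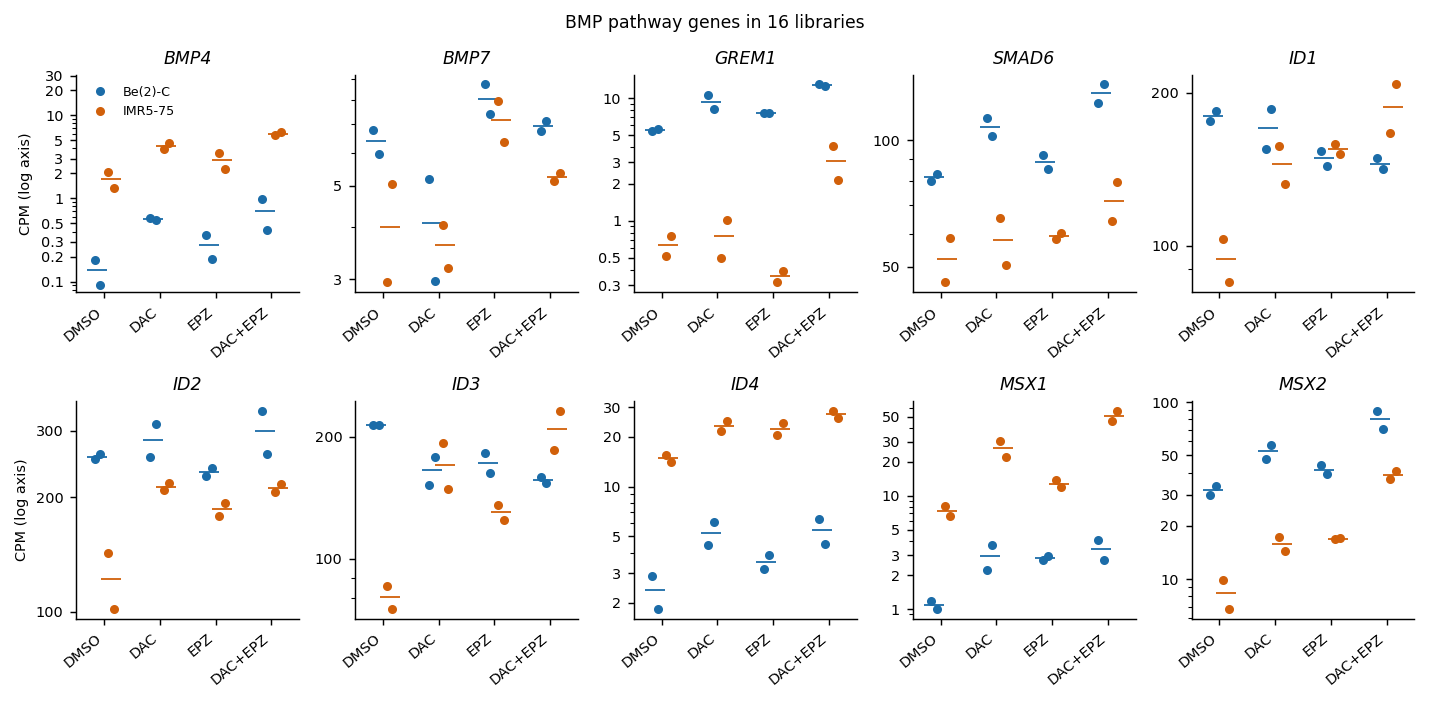
CPM (log axis) of the 10 genes in each of the 16 libraries; points are libraries, short lines are group means of 2 libraries, blue is Be(2)-C and orange IMR5-75. MSX1 and MSX2 climb with treatment in both lines, while ID1 and ID3 climb in IMR5-75, where DMSO is lowest, and not in Be(2)-C.

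In Be(2)-C, DAC alone raised MSX1, MSX2 and ID4. These were 3 of the 10 genes, all higher, where 6.7% of all genes tested were called (3.73% higher, 2.97% lower). MSX1 was at 2.22 and 3.71 CPM after DAC, against the DMSO values above (log2 change 1.41 ± 0.38, adjusted p = 0.0298). MSX2 was at 29.9 and 33.5 CPM with DMSO and at 48.1 and 57.5 CPM with DAC (0.73 ± 0.16, adjusted p = 0.00652). ID4 was at 4.44 and 6.11 CPM (1.14 ± 0.27, adjusted p = 0.0139). The DAC libraries lay above both DMSO libraries for all 3 genes.

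The other ID genes did not follow in that line. ID1 was at 176 and 184 CPM with DMSO and 155 and 186 with DAC (-0.08 ± 0.13), ID2 at 252 and 259.9 against 255 and 312 (0.15 ± 0.14), and ID3 at 214 and 213 against 152 and 178 (-0.37 ± 0.14, adjusted p = 0.104). The intervals were -0.35 to 0.19 for ID1 and -0.15 to 0.45 for ID2. GREM1 (10.5 and 8.15 CPM against 5.44 and 5.60) and SMAD6 (113 and 102.5 against 80.1 and 83.1) had both DAC libraries above both DMSO libraries but missed the threshold, with adjusted p of 0.0669 and 0.0903. BMP4 had 13 counts after DAC and 3 with DMSO (ratio 4.14, counting interval 1.14 to 22.7), and BMP7 was at 5.18 and 2.96 CPM against 6.80 and 5.97 (-0.63 ± 0.27). The median change of the 10 genes was 0.57 against 0.02 over all genes tested. The call count rested on single libraries: it fell without either DMSO library and without DAC 2. Calls over all genes fell as well in these fits. The log2 changes kept their direction with any single library left out. They ran from 1.01 to 1.73 for MSX1, 0.595 to 0.842 for MSX2 and 0.849 to 1.495 for ID4.

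EPZ alone raised MSX1 in Be(2)-C, to 2.72 and 2.96 CPM (1.37 ± 0.39, adjusted p = 0.0274), and no other of the 10 genes passed. That is 1 of 10 where 10.2% of all genes were called (5.35% higher, 4.85% lower). MSX2 was at 44.0 and 39.2 CPM, above both DMSO libraries (0.39 ± 0.16, adjusted p = 0.130), and ID4 was at 3.18 and 3.89 CPM (0.57 ± 0.29). ID1 (154 and 144 CPM, -0.28 ± 0.13) and ID3 (182 and 163 CPM, -0.31 ± 0.14) lay below their DMSO libraries without passing. BMP4 had 6 counts against 3 (ratio 2.01, counting interval 0.429 to 12.4). Leaving out any of the 4 libraries ended the MSX1 call, with an adjusted p of up to 0.167.

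With both drugs, Be(2)-C had higher MSX1, MSX2, ID4, GREM1, SMAD6 and BMP4 and lower ID3. These 7 calls among the 10 genes stand beside 23.7% of all genes called (13.2% higher, 10.4% lower). MSX2, at 89.5 and 70.7 CPM, was 2.53-fold above DMSO (1.34 ± 0.16, adjusted p = 2.72e-06). MSX1, at 4.10 and 2.73 CPM, changed by 1.65 ± 0.38 and ID4, at 6.41 and 4.51 CPM, by 1.21 ± 0.28. GREM1 was at 12.9 and 12.5 CPM (1.20 ± 0.24, adjusted p = 0.00095) and SMAD6 at 123 and 136 CPM (0.66 ± 0.14, adjusted p = 0.00147). In each of these 5 genes both treated libraries exceeded both DMSO libraries. The feedback gene and the antagonist moved in the same direction as the MSX genes.

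ID3 was at 159 and 154 CPM against 214 and 213 with DMSO, 0.733 of the DMSO level, and fell (-0.45 ± 0.14, adjusted p = 0.0199). ID1, at 149 and 141 CPM, lay below its DMSO libraries as well (-0.31 ± 0.13, adjusted p = 0.0867), and ID2 was at 338 and 260.1 CPM (0.22 ± 0.14). BMP4 had 15 counts against 3, a ratio of 5.28 with a counting interval of 1.49 to 28.5, and passed with an adjusted p of 0.0357. BMP7 was at 6.77 and 7.13 CPM, where the groups overlapped (0.12 ± 0.26). The median change was 0.93 against 0.05 over all genes. Without DMSO 2 there were 4 calls and without DAC+EPZ 1 there were 3: ID4 was lost without either, MSX1 without DAC+EPZ 1 (adjusted p = 0.0650), and BMP4 without either or without DMSO 1 (adjusted p up to 0.349). BMP4 also missed the threshold in the DESeq2 test (adjusted p = 0.0660), which called 6 of the 10 genes. The ID3 call was lost without any 1 of its 4 libraries (adjusted p up to 0.102), its value moving only between -0.48 and -0.43.

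Mesenchymal and Schwann cell markers were read in the same libraries. The summed level of 12 mesenchymal markers in Be(2)-C was 429 to 442 CPM with DMSO, 354 to 355 with DAC, 364 to 369 with EPZ and 398 to 405 with both drugs. The sum of 8 Schwann cell markers was 66.8 to 68.2, 67.4 to 72.1, 47.8 to 53.5 and 70.3 to 80.1 CPM in that order. Of 10 mesenchymal markers tested, 5 were called under each treatment, 3 higher and 2 lower. Of all genes tested in Be(2)-C, 6.7% were called after DAC, 10.2% after EPZ and 23.7% after both drugs. The median log2 change of the 10 mesenchymal markers was 0.38 after DAC, 0.23 after EPZ and 0.75 after both drugs. Their sum lay below DMSO each time. Over all Be(2)-C libraries, THY1, at 137 to 158 CPM, and TWIST1, at 94.5 to 153 CPM, were the largest parts of the mesenchymal sum. COL3A1 was there at no more than 5.52 CPM and COL1A1 at no more than 1.47 CPM. The part of the mesenchymal and Schwann cell markers in the changes of the 10 genes was not tested. SOX10, a defining Schwann cell gene, was at no more than 0.908 CPM in any library of either line.

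In IMR5-75, DAC alone raised MSX1, MSX2, all 4 ID genes and BMP4, which is 7 of the 10 genes, where 33.7% of all genes tested were called (19.9% higher, 13.8% lower). MSX1 was at 8.18 and 6.65 CPM with DMSO and at 30.6 and 22.2 CPM with DAC, 3.55-fold higher (1.83 ± 0.21, adjusted p = 7.02e-07). ID3 was at 86.0 and 75.5 CPM with DMSO and 193 and 148 with DAC (1.08 ± 0.14, adjusted p = 3.57e-06). ID1 was at 103 and 84.8 against 157 and 133 CPM (0.62 ± 0.13), and ID2 at 143 and 102 against 209.5 and 218 CPM (0.80 ± 0.15). For all 4 of these genes the DAC libraries lay above the DMSO libraries.

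ID4 was at 15.6 and 14.1 CPM with DMSO and 21.7 and 24.7 with DAC (0.64 ± 0.18, adjusted p = 0.00851). MSX2 was at 9.95 and 6.81 against 17.3 and 14.5 CPM (0.92 ± 0.19). BMP4, the ligand gene, was at 2.06 and 1.35 CPM with DMSO and 3.90 and 4.60 with DAC (1.30 ± 0.31, adjusted p = 0.00308). GREM1, SMAD6 and BMP7 had overlapping libraries: their changes were 0.24 ± 0.52, 0.15 ± 0.14 and -0.12 ± 0.28. The median change of the 10 genes was 0.72 against 0.02 over all genes. Of the 7 calls, that of ID4 was lost without DMSO 2 or without DAC 2 (adjusted p up to 0.0703).

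EPZ alone raised ID1, ID2, ID3 and MSX2 in IMR5-75. These 4 of 10 genes compare with 1.98% of all genes called (1.63% higher, 0.344% lower), the fewest of any drug against DMSO. ID1 was at 159 and 151 CPM (0.72 ± 0.13, adjusted p = 0.00642), ID3 at 136 and 125 CPM (0.69 ± 0.14, adjusted p = 0.0114) and ID2 at 179 and 193 CPM (0.60 ± 0.15, adjusted p = 0.0321). MSX2 was at 16.8 and 17.2 CPM, 2.01-fold above DMSO (1.01 ± 0.19, adjusted p = 0.00642). All 8 of these EPZ values were above the DMSO values of the same gene.

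For 5 other genes the EPZ libraries lay wholly above or below DMSO without passing. MSX1 was at 13.7 and 11.9 CPM (0.78 ± 0.22, adjusted p = 0.0644), ID4 at 20.3 and 24.2 CPM (0.58 ± 0.18, adjusted p = 0.102) and BMP7 at 7.96 and 6.37 CPM (0.86 ± 0.26, adjusted p = 0.0996). BMP4 was at 3.55 and 2.28 CPM (0.76 ± 0.33), and GREM1 lay below its DMSO libraries, at 0.315 and 0.393 CPM or 9 counts in all (-0.81 ± 0.62). SMAD6 overlapped (0.19 ± 0.14). The median was 0.70 against 0.01 over all genes. The number of calls depended on 3 libraries: it was 0 without DMSO 2, 0 without EPZ 1 and 2 without EPZ 2, settings in which all genes together had 32, 60 and 97 calls instead of 316.

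With both drugs, 9 of the 10 genes were higher in IMR5-75, all but BMP7, where 46.2% of all genes were called (25.7% higher, 20.4% lower). MSX1 reached 45.5 and 56.4 CPM, 6.84-fold above DMSO (2.77 ± 0.20, adjusted p = 8.73e-10). MSX2 reached 36.7 and 40.7 CPM, 4.59-fold above (2.20 ± 0.18, adjusted p = 3.68e-09). GREM1, with 16 counts in the DMSO libraries and 86 here, was at 4.04 and 2.13 CPM (2.27 ± 0.40, adjusted p = 8.41e-05), and BMP4 at 5.72 and 6.26 CPM (1.79 ± 0.30, adjusted p = 5.25e-05). Every treated library of these genes exceeded both DMSO libraries.

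Among the ID genes under both drugs, ID3 was at 185 and 232 CPM (1.37 ± 0.14, adjusted p = 8.40e-08) and ID1 at 167 and 208 CPM (0.99 ± 0.13). ID2, at 207 and 217 CPM (0.79 ± 0.15), and ID4, at 28.6 and 25.8 CPM (0.87 ± 0.18), rose as well. SMAD6 was at 64.2 and 79.5 CPM against 45.9 and 58.5 with DMSO (0.46 ± 0.14, adjusted p = 0.0107), a call lost without DMSO 1 or DAC+EPZ 2 (adjusted p up to 0.116). BMP7, the other ligand gene, was at 5.14 and 5.36 CPM against 2.95 and 5.05 (0.41 ± 0.27). The median was 1.18 against 0.03 over all genes.

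Other markers moved in the same IMR5-75 libraries. The 12 mesenchymal markers summed to 350.4 to 373 CPM with DMSO, 579 to 613 with DAC, 438 to 466 with EPZ and 817 to 872 with both drugs. Of the 10 that could be tested, 7 were called after DAC (6 higher), 1 after EPZ (higher) and all 10 after both drugs (9 higher). POSTN was at no more than 0.367 CPM and COL1A2 at no more than 0.552 CPM in that line, whereas COL3A1 reached 428 and PRRX1 195 CPM. The 8 Schwann cell markers summed to 21.7 to 23.8, 39.2 to 42.1, 27.6 to 29.1 and 52.8 to 54.0 CPM in the same order, with CDH19 at no more than 1.17 CPM, and 5 of 7 tested were called higher after DAC and 6 after both drugs. Of all genes tested in IMR5-75, 33.7% were called after DAC (19.9% higher), 1.98% after EPZ (1.63% higher) and 46.2% after both drugs (25.7% higher). The part of the mesenchymal and Schwann cell markers was not tested here either.

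**Figure D2:**
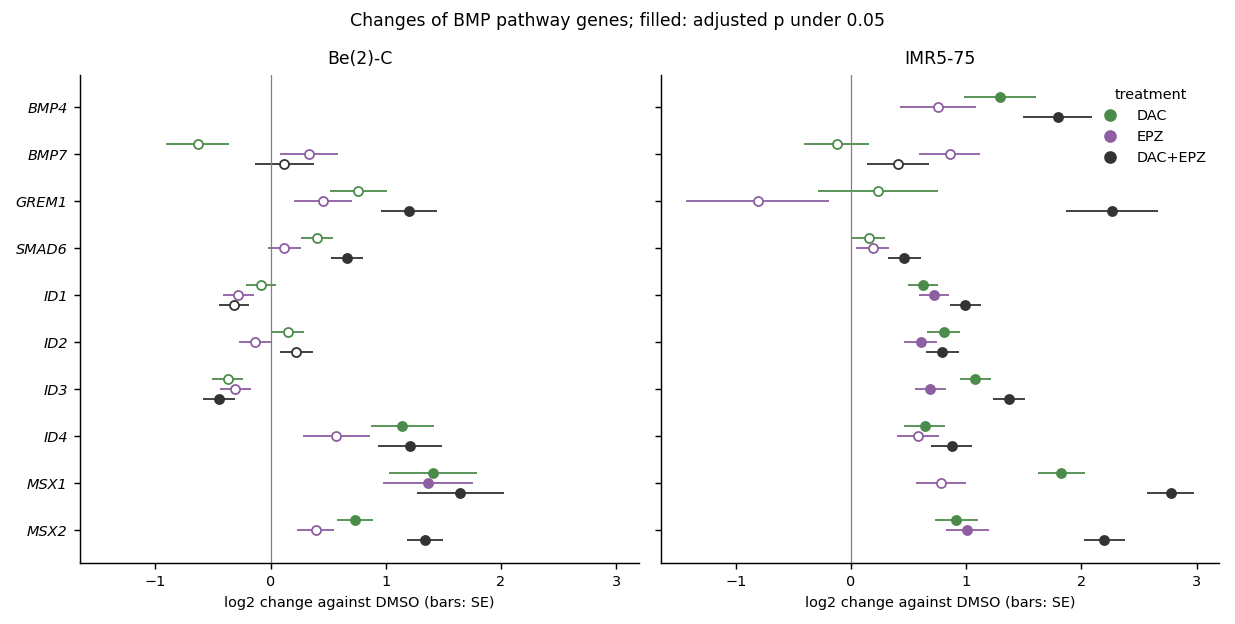
Log2 change against DMSO of the same line, with bars of 1 standard error, for DAC (green), EPZ (purple) and both drugs (black); filled points passed an adjusted p of 0.05 in edgeR's quasi-likelihood test. BMP4 in Be(2)-C, with 3 counts in DMSO, is not drawn. MSX1 lies furthest right, under both drugs in IMR5-75, at 2.77, followed there by GREM1 at 2.27 and MSX2 at 2.20.

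The 3 comparisons of a line share its DMSO libraries, so the combination was also set against each single drug. In IMR5-75, adding EPZ to DAC raised GREM1, MSX1 and MSX2, which are 3 of 10 genes where 1.94% of all genes were called (1.22% higher, 0.72% lower). GREM1 went from 0.496 and 1.01 CPM with DAC alone to the 4.04 and 2.13 CPM above (2.03 ± 0.38, adjusted p = 0.00826), MSX2 changed by 1.28 ± 0.16 (adjusted p = 0.000361) and MSX1 by 0.95 ± 0.18 (adjusted p = 0.00926). In none of these genes did the groups overlap. The GREM1 call was lost without DAC 1 or DAC+EPZ 1 (adjusted p up to 0.0956), and that of MSX1 without DAC 2 or DAC+EPZ 2 (up to 0.143). The 4 ID genes did not pass here; ID2 was nearly level between the groups (-0.01 ± 0.14) and ID1 changed by 0.37 ± 0.13 (adjusted p = 0.168).

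Against EPZ alone, both drugs gave higher GREM1 (3.08 ± 0.45), MSX1 (1.99 ± 0.19), MSX2 (1.19 ± 0.16), BMP4 (1.04 ± 0.28) and ID3 (0.68 ± 0.14) in IMR5-75, 5 of 10 where 37.6% of all genes were called (20.7% higher, 16.9% lower). The BMP4 call was lost without EPZ 2 (adjusted p = 0.0921). In Be(2)-C, MSX2 was the gene that exceeded both single drugs: by 0.94 ± 0.15 over EPZ, together with SMAD6 (0.54 ± 0.14), 2 of 10 where 4.21% were called (2.84% higher, 1.37% lower), and by 0.60 ± 0.15 over DAC, 1 of 10 where 5.44% were called (3.42% higher, 2.02% lower). The MSX2 difference from DAC was lost without DAC 1 or DAC+EPZ 1 (adjusted p up to 0.266), and that of SMAD6 from EPZ without any 1 of its libraries (up to 0.229). GREM1 in Be(2)-C was at 0.75 ± 0.23 over EPZ (adjusted p = 0.0777) and 0.44 ± 0.23 over DAC (adjusted p = 0.332).

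Whether the drugs acted beyond the sum of their log2 changes was tested as an interaction. In edgeR's quasi-likelihood test 0 of the 10 genes passed in either line, and 0 passed in DESeq2. Of all genes, edgeR called 0.257% in Be(2)-C (0.0125% higher, 0.244% lower) and 0.0251% in IMR5-75 (0.0125% higher, 0.0125% lower). At an unadjusted p under 0.05 there was 1 gene in Be(2)-C, MSX1, with an interaction of -1.13 ± 0.50, and there were 3 in IMR5-75. Those were GREM1 (2.84 ± 0.74, adjusted p = 0.406), ID2 (-0.62 ± 0.20) and ID3 (-0.40 ± 0.19). GREM1 was low after each drug alone in IMR5-75, with 20 counts after DAC and 9 after EPZ, and had 86 counts after both. Its interaction passed when no filter on low counts was used (adjusted p = 0.0205), and over 13 alternatives the adjusted p ran from 0.0205 to 0.9999.

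The change in ID1 and ID3 differed between the lines under every treatment. After DAC the log2 change in IMR5-75 exceeded that in Be(2)-C by 1.45 ± 0.19 for ID3 (adjusted p = 2.32e-05) and by 0.70 ± 0.19 for ID1 (adjusted p = 0.0227), 2 of 10 genes where 6.19% of all genes were called (5.13% higher, 1.06% lower). After EPZ the differences were 1.00 ± 0.19 for both genes (adjusted p = 0.0109 for ID3 and 0.00836 for ID1), 2 of 10 where 1.19% were called (0.57% higher, 0.62% lower). After both drugs they were 1.82 ± 0.19 for ID3 (adjusted p = 9.30e-07) and 1.31 ± 0.19 for ID1 (adjusted p = 4.42e-05), and MSX2 also differed (0.86 ± 0.24, adjusted p = 0.0211), 3 of 10 where 11.1% were called (6.71% higher, 4.35% lower). With DMSO the ID3 libraries were at 214 and 213 CPM in Be(2)-C and 86.0 and 75.5 in IMR5-75, and with both drugs at 159 and 154 against 185 and 232.

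ID2 differed in the same direction without passing, by 0.66 ± 0.20 after DAC (adjusted p = 0.0610), 0.74 ± 0.20 after EPZ (0.0867) and 0.57 ± 0.20 after both (0.0802). It passed in 4 of 12 alternatives after DAC and in 3 of 12 after EPZ and after both, among them the DESeq2 test after DAC and after EPZ, with an adjusted p between 0.00451 and 0.374 over all of these. No difference between lines was detected for MSX1, where the interval ran from -0.55 to 1.38 after DAC, from -1.52 to 0.35 after EPZ and from 0.16 to 2.10 after both drugs (adjusted p = 0.135). The ID3 differences after DAC and after both drugs, and that of ID1 after both, passed in 12 of 12 alternatives. The ID1 difference after DAC passed in 7 of 12 (adjusted p up to 0.130), those after EPZ in 10 for ID1 and 8 for ID3, and that of MSX2 in 8. The libraries whose absence ended the ID1 call after DAC were Be(2)-C DMSO 1, DMSO 2 and DAC 1 and IMR5-75 DMSO 2 and DAC 1, each leaving 1 call. For EPZ, 1 call was left without Be(2)-C DMSO 1 or IMR5-75 EPZ 1 and 0 without Be(2)-C DMSO 2 or IMR5-75 DMSO 2. The MSX2 difference was lost without Be(2)-C DMSO 2 or DAC+EPZ 2, or without IMR5-75 DMSO 2 or DAC+EPZ 2 (adjusted p up to 0.141).

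**Figure D3:**
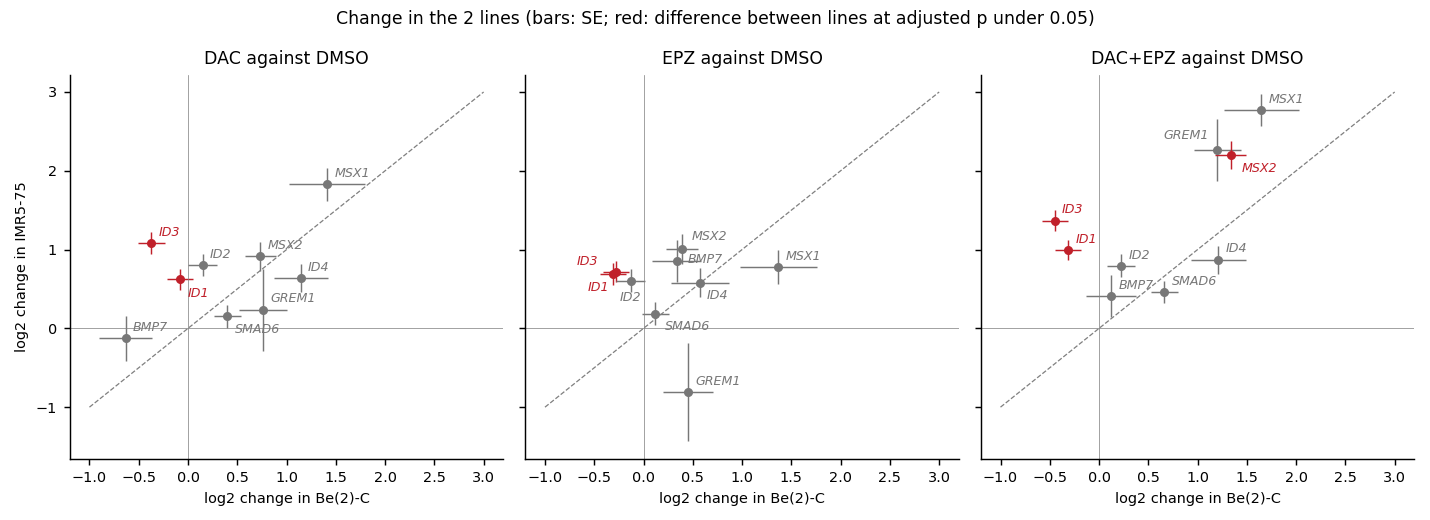
Log2 change against DMSO in Be(2)-C (x axis) and IMR5-75 (y axis) for 9 of the genes (BMP4 left out), with bars of 1 standard error; the dashed line marks equal change and red marks a difference between lines at adjusted p under 0.05. ID1 and ID3 sit left of 0 and above it in all 3 panels, with ID3 at -0.45 and 1.37 under both drugs.

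The rest of the pathway was read from 83 further genes in 6 roles, of which 73 could be tested. In Be(2)-C, 6 were called after DAC (5 higher), 5 after EPZ (3 higher) and 17 after both drugs (13 higher). In IMR5-75, 25 were called after DAC (22 higher), 9 after EPZ (7 higher) and 37 after both (32 higher). As shares of those tested these were 8.219%, 6.849% and 23.29% in Be(2)-C and 34.25%, 12.33% and 50.68% in IMR5-75, beside 6.7%, 10.2% and 23.7%, and 33.7%, 1.98% and 46.2%, of all genes tested. The median changes under both drugs were 0.28 and 0.47, against 0.05 and 0.03 over all genes. Single libraries moved the smaller counts: after DAC in Be(2)-C there was 1 call without DMSO 1 or DAC 1 and there were 2 without DMSO 2, after EPZ in Be(2)-C there were 2 without either DMSO library, and after EPZ in IMR5-75 there was 1 without DMSO 2 or EPZ 1 and there were 3 without EPZ 2.

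Some secreted antagonists were higher in each line. FSTL1, a follistatin-like secreted protein, rose in Be(2)-C after EPZ (1.47 ± 0.15) and both drugs (2.02 ± 0.15). FST, follistatin, which binds activins and some BMPs, rose in IMR5-75 from 2.98 ± 0.06 CPM (SD, n = 2) to 16.6 ± 1.19 after DAC (2.47 ± 0.20), 9.10 ± 0.07 after EPZ (1.60 ± 0.21) and 29.8 ± 0.17 after both (3.32 ± 0.20). In the role as a whole, 4 of 15 tested were called in Be(2)-C and 7 of 15 in IMR5-75 under both drugs, all higher. These are 26.67% and 46.67%, beside 23.7% of all genes in Be(2)-C (13.2% higher) and 46.2% in IMR5-75 (25.7% higher). CHRD and NOG were among those in Be(2)-C, NOG at 0 counts with DMSO and 7 with both drugs.

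Among other target genes, HES1 and HEY1, repressors that are also targets of Notch, rose in IMR5-75 after DAC (HES1 3.18 ± 0.29, HEY1 2.71 ± 0.25), after EPZ (1.66 ± 0.34 and 1.49 ± 0.28) and after both drugs (4.37 ± 0.26 and 3.42 ± 0.23). HES1 went from 0.895 ± 0.19 CPM with DMSO to 18.8 ± 1.69 with both drugs there, and in Be(2)-C it was at 13.9 ± 2.26 and 14.1 ± 0.35 CPM. HEY1 rose in Be(2)-C by 1.01 ± 0.15 under both drugs, and by 0.55 ± 0.16 and 0.49 ± 0.16 under DAC and EPZ. HAMP, the iron hormone hepcidin and a SMAD target in liver, rose in Be(2)-C from 6 counts to 68 after DAC (3.40 ± 0.55) and 78 after both (3.75 ± 0.54). TBX20, a T-box factor, rose after DAC in Be(2)-C (0.55 ± 0.14). ATOH8 fell in IMR5-75 after DAC (-0.82 ± 0.14) and after both drugs (-0.58 ± 0.14). Of 14 tested targets, 3 were called in Be(2)-C, all higher, and 10 in IMR5-75 (9 higher) under both drugs. These are 21.43% and 71.43%, beside 23.7% of all genes in Be(2)-C (13.2% higher) and 46.2% in IMR5-75 (25.7% higher).

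Partners of the ID proteins held all 4 of the falls under both drugs in Be(2)-C and 4 of the 5 in IMR5-75. TCF3, one of the E proteins that ID proteins bind, fell in Be(2)-C after EPZ (-0.49 ± 0.15) and both drugs (-0.49 ± 0.15), and in IMR5-75 after DAC (-0.60 ± 0.15), EPZ (-0.58 ± 0.15) and both (-0.74 ± 0.15). TWIST1 fell in Be(2)-C after DAC (-0.61 ± 0.13), EPZ (-0.41 ± 0.13) and both drugs (-0.55 ± 0.13), and rose in IMR5-75 after both (0.47 ± 0.13). NEUROG2 fell in IMR5-75 after EPZ (-1.15 ± 0.28), from DMSO libraries at 6.86 and 13.5 CPM that differed widely. Of 9 partners, 4 were called in Be(2)-C under both drugs, all lower, and 5 in IMR5-75, 4 of them lower. These are 44.44% and 55.56%, beside 23.7% of all genes in Be(2)-C (10.4% lower) and 46.2% in IMR5-75 (20.4% lower). HAND2 was among the falls in both lines and TCF4 among those in IMR5-75. TCF12, another E protein, did not pass under both drugs, at 304 ± 6.41 and 289.8 ± 29.1 CPM in Be(2)-C (-0.07 ± 0.12) and 206.5 ± 1.88 and 190.3 ± 16.9 CPM in IMR5-75 (-0.12 ± 0.12) with DMSO and both drugs. HAND2 is also a noradrenergic marker and TWIST1 is also a mesenchymal one.

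Receptors and transducers were called at shares of 9.091% and 21.43% in Be(2)-C and 36.36% and 35.71% in IMR5-75 under both drugs, and those called were higher. Of all genes, 23.7% were called in Be(2)-C (13.2% higher) and 46.2% in IMR5-75 (25.7% higher). In Be(2)-C, 1 of 11 receptors and co-receptors was called (ACVRL1, 1.88 ± 0.35) and in IMR5-75 there were 4 (ACVR1, BMPR1B, BMPR2 and ENG). Of 14 transducers and regulators, 3 were called in Be(2)-C (SMAD7, SKIL and SMURF2) and 5 in IMR5-75 (BAMBI, SMAD1, SMAD7, SMAD9 and TOB1). SMAD7, the other inhibitory SMAD, changed by 0.78 ± 0.13 in Be(2)-C and 0.52 ± 0.12 in IMR5-75, and TOB1, which restrains BMP signalling in bone cells, by 1.63 ± 0.14 after DAC and 1.66 ± 0.14 after both drugs in IMR5-75. Of 10 tested in the ligand list, 2 were called in Be(2)-C (BMP6 and BMP8B) and 6 in IMR5-75 (BMP1, BMP3, BMP5, BMP8A, GDF7 and GDF10) under both drugs, or 20% and 60%; BMP1 encodes a protease in spite of its name.

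**Figure D4:**
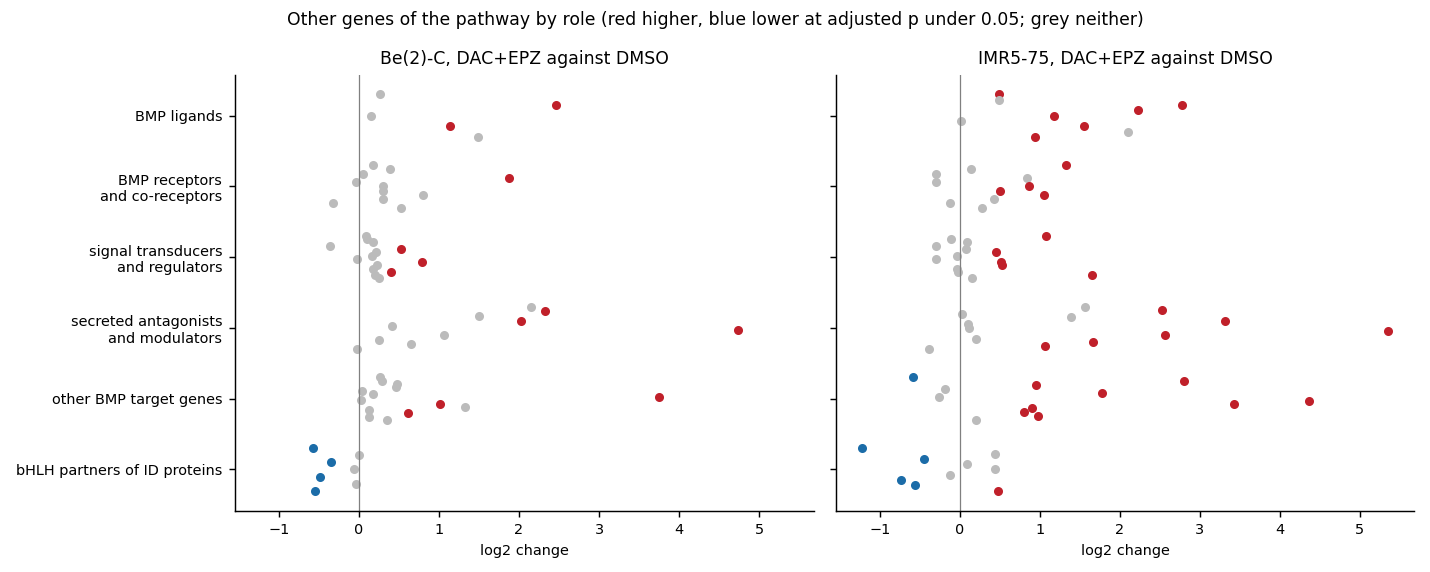
Log2 change under both drugs against DMSO for other pathway genes by role, 61 genes in Be(2)-C and 68 in IMR5-75 with more than 3 counts in each group compared; red passed as higher, blue as lower. Of those drawn, 12 were higher and 4 lower in Be(2)-C and 30 were higher and 5 lower in IMR5-75, and the blue points lie mostly among the bHLH partners.

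Likeness of pattern was measured as Pearson's r of log2 CPM over the 16 libraries after subtracting each line's mean, among the 12644 genes whose log2 CPM averaged 1 or more. The libraries are shared by all these values and the treatments set most of the spread, so they are descriptions. MSX1 was most like CDKN2B (r = 0.955) and PIK3IP1 (0.954), MSX2 most like LOC729177 (0.933) and COL6A3 (0.929). ID3 was most like GABRB1 (0.946) and HIST1H3A (0.939), ID1 like LYSMD2 (0.935) and OAS3 (0.918), ID2 like CMPK2 (0.927) and CHCHD7 (0.916), and ID4 like KCNMB4 (0.938) and HECA (0.911). GREM1 was most like ZADH2 (0.881) and CYTH3 (0.877), SMAD6 like GCHFR (0.893) and HR (0.884), and BMP7 like FAM149A (0.869) and LSAMP (0.845). BMP4 was below the level minimum. Among the 10 genes themselves, ID1 and ID3 were the most alike (0.913), followed by MSX1 and MSX2 (0.884).

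Some of these genes share sequence or place with others. ID2B and MSX2P1, processed copies of ID2 and MSX2, had 4 to 28 and 0 to 9 counts per library, against 1212 to 3798 for ID2 and 81 to 1005 for MSX2. In GENCODE v29, BMP7, GREM1, ID2 and ID4 overlap a transcript on the opposite strand and SMAD6 one on its own strand. Since the strand setting of the counting is not given in the sources used here, reads of these transcripts could be in the counts of those 5 genes.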

How the data were processed

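The authors deposited raw counts of reads per gene symbol, and per the submitters' processing notes used TopHat2 2.0.5, HTSeq 0.5.3p9, DESeq2 (no version) and build hg19; per the labels, RNA was depleted of ribosomal RNA and sequenced as single-end reads from strand-specific libraries. No source used here gives the annotation or the strand setting. The tests used edgeR 4.0.16 under R 4.3.3: filterByExpr, TMM scaling, and 1 quasi-likelihood model of 8 group means over 16 libraries (8 residual degrees of freedom, common biological variation 9.877%), with genes called where the Benjamini-Hochberg adjusted p, over all 15967 genes tested, was under 0.05. CPM use the TMM-scaled library sizes; 3 counts equal 0.206 to 0.315 CPM. For 3 or fewer counts in a group a ratio with an exact binomial 95% interval, which covers counting error only, replaces the fitted fold. All 10 genes were named in every comparison; of the other pathway genes, the 3 with the smallest adjusted p per direction and treatment were named, and further names were added after their values were seen to account for small counts; some genes the rule picks are not reported here. The 10 genes and the lists were chosen with earlier results of these data known. Alternatives were DESeq2 size factors, no filter, the DESeq2 1.42.0 Wald test, a replicate block, separate fits for the lines, and leaving out single libraries, where the remaining library of a group borrows its spread from the other groups. The code was tested on simulated data.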

Additional observations from a re-analysis of the deposited data

Results flagged for a closer look

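The following differences between lines, each IMR5-75 change minus Be(2)-C change on the log2 scale, passed edgeR's contrast of the 2 changes. For ID1 they were 0.7043 after DAC, 0.9989 after EPZ and 1.308 after both drugs. For ID3 they were 1.451, 0.9976 and 1.815 in that order. For MSX2 it was 0.8589 after both drugs. In the libraries with both drugs ID1 was at 167 and 208 CPM in IMR5-75 and 149 and 141 in Be(2)-C, and MSX2 at 36.7 and 40.7 against 89.5 and 70.7. The summed mesenchymal markers moved in the same libraries, from 350.4 to 373 CPM with DMSO to 817 to 872 with both drugs in IMR5-75 and from 429 to 442 to 398 to 405 in Be(2)-C. The median log2 change of the 10 such markers tested was above 0 in both lines, at 1.705 in IMR5-75 and 0.7549 in Be(2)-C under both drugs. In Be(2)-C the sum and the median thus went in opposite directions, and THY1 and TWIST1 were the largest parts of the sum. The part of the mesenchymal markers in the differences between lines was not tested.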

How the results depend on the processing

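Over 6 kinds of alternative, 115 gene values were each compared with several settings, mostly fits with 1 library left out. Outside the comparisons with DMSO and between lines, only called genes and GREM1 were followed. Of the comparisons of a value with a setting, 1006 kept direction and side of the threshold. In 67 a call was lost, in 23 one was gained and in 24 the direction changed. Without a filter on low counts, 5 of the 10 genes were called after DAC in Be(2)-C, 7 after EPZ in IMR5-75 and 1 in the IMR5-75 interaction; for all genes the calls were 109 instead of 41 in the Be(2)-C interaction, 740 instead of 316 after EPZ in IMR5-75, 541 instead of 309 for both drugs against DAC and 84 instead of 4 in the interaction there, and 425 instead of 190 in the difference between lines after EPZ. The DESeq2 test gave 12 and 286 in the last pair. With each line fitted alone, 5 of the 10 genes were called after DAC in Be(2)-C, 4 other pathway genes after EPZ in IMR5-75, and of all genes 164 for both drugs against DAC and 1 in the interaction in IMR5-75. With a replicate block, other pathway genes called after EPZ were 2 in Be(2)-C and 5 in IMR5-75. The correlation of deviations by replicate number ran from -0.25 to 0.23 over 28 pairs of groups and was over 0.1 in 6. No pairing common to all groups was thus seen. Whether some groups shared a batch was not tested.

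Leaving out single libraries gave 0 to 3 calls among the 10 genes after DAC, 0 after EPZ and 3 to 6 after both drugs in Be(2)-C, 0 to 1 for both drugs against DAC and 1 against EPZ there, 0 to 4 after EPZ in IMR5-75, and 1 to 3 and 0 to 3 for the difference between lines after DAC and EPZ. Other pathway genes ranged over 1 to 4, 2 to 6 and 11 to 13 in Be(2)-C after DAC, EPZ and both, and 1 to 9 after EPZ in IMR5-75. In Be(2)-C, calls over all genes against DMSO also fell with any single library left out, under each treatment. Directions that turned belonged to uncalled values. In Be(2)-C after DAC, ID1 ran from -0.22 to 0.025 and ID2 from -0.0083 to 0.27, and the GREM1 interaction from -0.18 to 0.21 (0.0028 without a filter). In IMR5-75 after DAC, GREM1 ran from -0.33 to 0.68, BMP7 from -0.46 to 0.29 and SMAD6 from -0.042 to 0.34. Between lines, MSX2 ran from -0.063 to 0.52 after DAC; after EPZ BMP4 ran from -0.72 to 0.35, SMAD6 from -0.054 to 0.26 and ID4 from -0.35 to 0.30; after both, BMP4 ran from -1.05 to 0.25 and SMAD6 from -0.30 to 0.019. Apart from the smaller sets of libraries and the wider set of genes, the cause was not tested. With 2 libraries a group, 3 BMP4 counts in Be(2)-C DMSO and 16 GREM1 counts in IMR5-75 DMSO, small changes in these genes were not detectable at this depth.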
